A study of Mus musculus with 4 samples.

Results

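In all, 7 Notch pathway genes were followed by symbol through single-cell libraries of the mouse duodenal crypt: the ligands Dll1, Dll4 and Jag1, the receptors Notch1 and Notch2, and the basic helix-loop-helix genes Hes1 and Hes6. All 7 were present among the 31053 genes of the deposited matrices. The libraries came from TOM+ cells, that is, cells in which a red reporter at the Rosa26 locus (R26RTom) had been switched on by Cre, sorted alive after tamoxifen. The labels name the WT group Atoh1CreER-T2; R26RTom. They name the APC-KO group Atoh1Cre;Apcfl/fl;R26RTom, and the series text gives Atoh1CreER-T2 for it as well. Both groups received 2 doses of tamoxifen, given as 1 mg/mL, 24 h apart and were harvested 12 h after the last dose, so the controls carry the driver, the reporter and the drug too. The driver is named for Atoh1, the secretory fate gene that Notch signalling represses, and the sort therefore selected cells by the history of that gene. Each genotype had 2 libraries, and the labels give no animal, age, sex or batch for any of them. The p-values therefore rest only on the spread between libraries, partly borrowed from other genes, and that spread may be technical.

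Notch signalling works between touching cells. A Delta or Jagged ligand on one cell pulls on a Notch receptor on its neighbour, the receptor is cleaved, and its intracellular part joins the DNA-binding protein RBPJ to switch on repressors such as Hes1. Hes1 in turn represses Atoh1 and the ligand genes, a loop called lateral inhibition. In the intestine this loop keeps stem and absorptive cells in the receiving state, while the cells that express the ligands become goblet, Paneth, enteroendocrine or tuft cells.

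Replicates 1 and 2 of WT contributed 4814 and 3821 kept cells, and those of APC-KO 356 and 6243. The kept cells held 24677647, 21003179, 3009636 and 27285079 UMIs (unique molecular identifiers, each a counted transcript). APC-KO replicate 1 stood apart before any result: 5.15% of the UMIs in its matrix lay in kept cells, against 37.6% to 50.3% in the other libraries, and its median cell held 8370 UMIs against 3973 to 5354. It had 5 to 45 cells in 11 of the 12 deposited cell types and 184 in GOBLET-PRE. Any pair of libraries shared 1 to 8 cell barcodes. The type names ISC, ENTERO-PRO, SEC-PRO, GP, GOBLET-PRE, GOBLET, PANETH-PRE, PANETH, EEC-PRE, EC, NON-EC and TUFT are printed as deposited. In all 4 libraries the stem cell list (Lgr5, Olfm4, Ascl2, Smoc2) summed highest in ISC, the goblet list in GOBLET, the Paneth list in PANETH, the tuft list in TUFT, the enterochromaffin list (Tph1, Tac1, Ddc) in EC, the list of other gut hormones in NON-EC, and the proliferation list in SEC-PRO. The targeted gene, Apc, had 87.2, 77.9, 88.1 and 88.1 CPM (UMIs per 1000000 UMIs of the library; the WT libraries first, then APC-KO replicates 1 and 2); reads from the 3′ end of a transcript need not show the deletion, so this level does not check the labels.

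Levels in a type are given as CPM with the summed UMIs of that type in a library as the total. How the deposited names were made is not given in the sources used here, and names drawn from the same cells' expression are not independent of it, so a difference between types is a description without a test. Neighbours in an order are called apart where neither their libraries' ranges nor the exact 95% Poisson intervals of their summed UMIs overlapped. The intervals cover counting error only.

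Dll1, a Delta ligand, was a gene of the early secretory types. Its WT level was 212 and 246 CPM in SEC-PRO (replicates 1 and 2), 185 and 211 CPM in GP, 148 and 229 CPM in EEC-PRE and 112 and 132 CPM in GOBLET-PRE. SEC-PRO was apart from GP, EEC-PRE from GOBLET-PRE and GOBLET-PRE from PANETH-PRE, at 63.3 and 103 CPM. Below these lay TUFT (63.7 and 54.8 CPM), NON-EC (40.7 and 45.1), GOBLET (45.6 and 26.2), ISC (28.6 and 34.8), EC (19.96 and 21.37), ENTERO-PRO (22.4 and 8.69) and PANETH (10.2 and 9.18), with no neighbours apart. The mean in SEC-PRO was 23.6 times that in PANETH. Along both secretory branches Dll1 was lower in the mature type than in its precursor: 35.9 CPM in GOBLET against 122 in GOBLET-PRE, and 9.67 in PANETH against 83.1 in PANETH-PRE.

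The size of that difference depends on the total. The 22 genes that each exceeded 1% of a WT sum held 69.8% and 68.3% of the UMIs of WT PANETH cells and 48.9% and 51.9% of those of WT GOBLET cells, but 5.40% and 5.39% in ISC. With those genes left out of the totals, Dll1 was 31.3 CPM in PANETH and 107 in PANETH-PRE, 71.9 in GOBLET and 158 in GOBLET-PRE, and ENTERO-PRO became the lowest type at 16.8 CPM. SEC-PRO stayed the highest, at 249 CPM. Counted per 100 cells, SEC-PRO held 130 Dll1 UMIs, GP 103, PANETH 11.8 and EC 6.93.

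Dll4, the second Delta ligand, had another profile. Its highest WT level was in EC, 91.8 and 107 CPM, followed by NON-EC (77.7 and 75.6), SEC-PRO (57.9 and 78.7), GP (60.5 and 74.5), EEC-PRE (64.6 and 63.0), GOBLET-PRE (47.6 and 70.9) and PANETH-PRE (55.2 and 57.2). GOBLET had 33.3 and 39.6 CPM, TUFT 15.9 and 31.8, PANETH 8.13 and 19.3, ISC 14.0 and 12.1 and ENTERO-PRO 10.5 and 2.17. No neighbours in this order were apart, but 44 of the 66 pairs of types were: EC lay apart from each type except NON-EC, and SEC-PRO, GP, EEC-PRE and GOBLET-PRE lay apart from GOBLET but not from one another. The highest mean was 15.6 times the lowest, which rests on 8 and 1 UMIs in ENTERO-PRO, so that the ratio was 8.71 in WT replicate 1 and 49.2 in replicate 2. With the abundant genes left out of the totals GOBLET moved from 36.5 to 73.8 CPM, near SEC-PRO at 74.4, and PANETH from 13.7 to 44.0, while EC stayed highest at 113 CPM. EC, where Dll1 was near its lowest, was the type in which Dll4 was highest in both WT replicates. Counted per 100 cells, however, SEC-PRO (38.8 Dll4 UMIs) and GP (35.04) came before EC (33.4), whose cells held fewer UMIs. Dll4 is also known from endothelium, cells that a sort for an Atoh1-driven reporter should leave out. The endothelial list summed to 35.9 and 26.7 CPM in EC of the WT libraries and 25.6 and 12.5 CPM in EC of the APC-KO libraries, its highest type in each library. Of its 4 genes Cdh5 had 0 UMIs in every library, and the part of the list in the Dll4 level was not tested.

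Jag1, the Jagged ligand measured here, was low everywhere. It had 185 WT UMIs in all, with 9.63 and 14.2 CPM in ISC, 7.98 and 12.8 in EC and 6.59 and 8.69 in ENTERO-PRO. The other 9 types lay at means of 5.17 CPM or less, and no neighbours were apart.

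**Figure D1:**
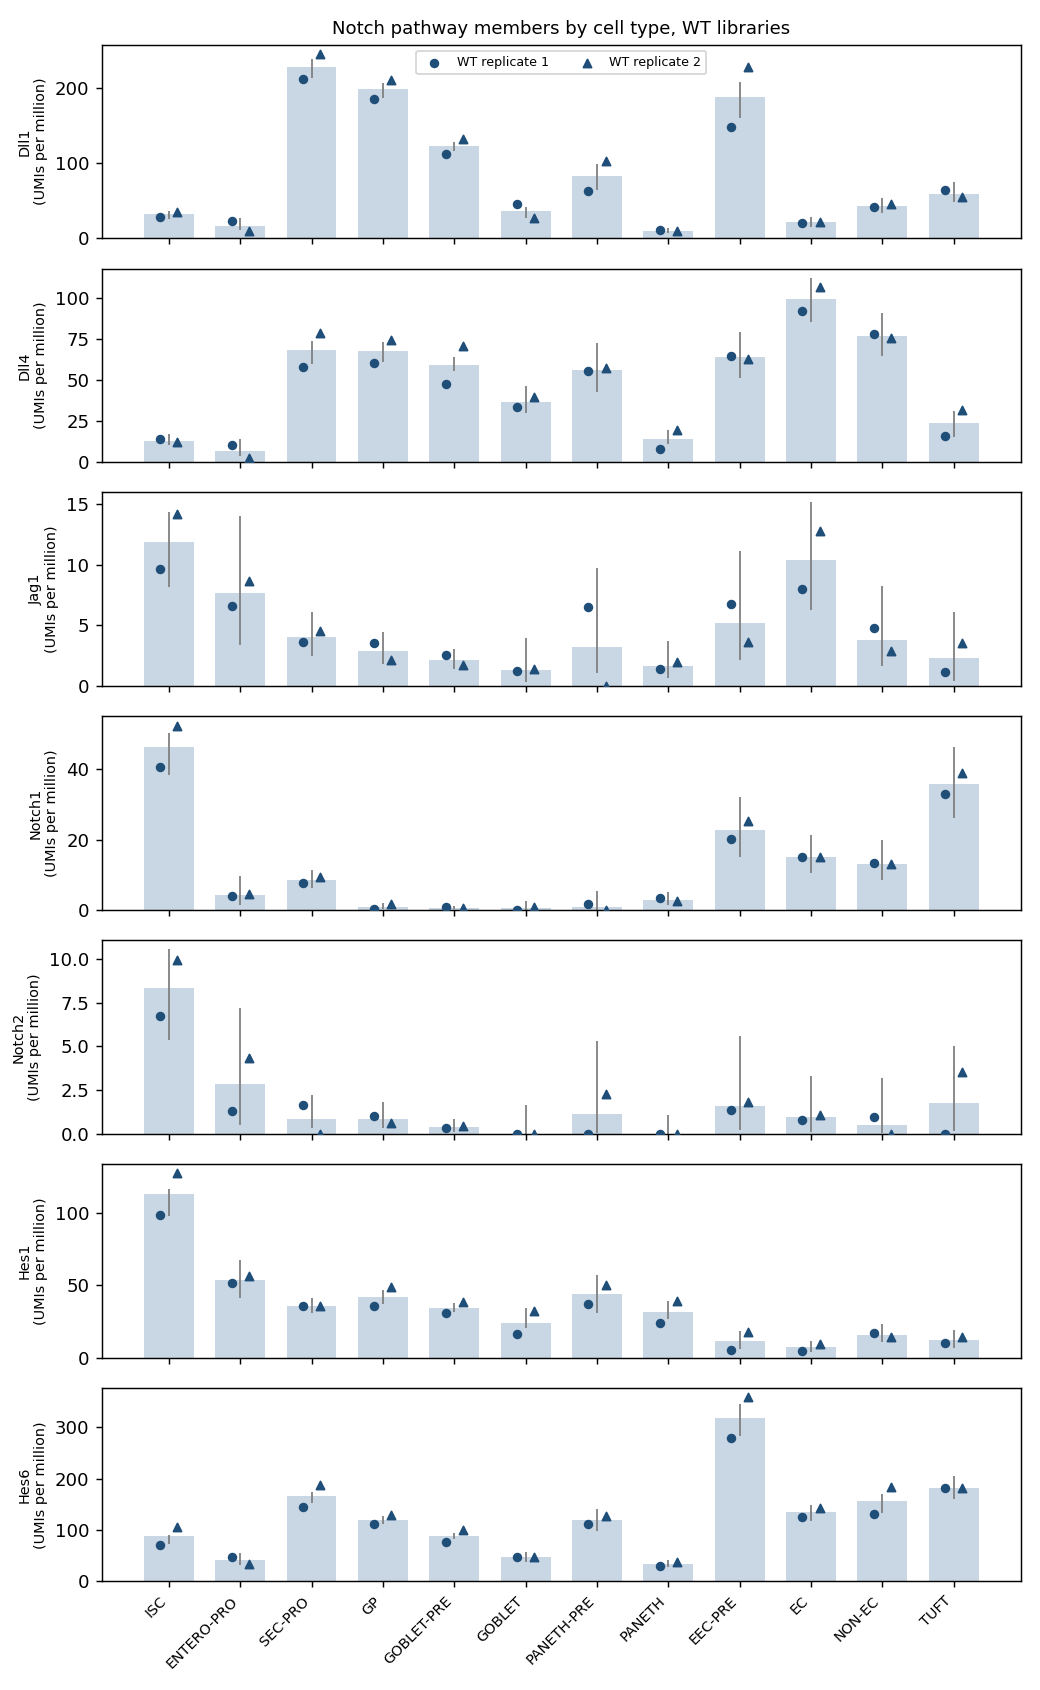
WT levels of the 7 genes (y axes, CPM, linear from 0) in the 12 deposited cell types (x axis). Bars are means of 2 libraries, circles and triangles are replicates 1 and 2, and grey lines are exact 95% Poisson intervals of the pooled UMIs. Dll1 peaks in SEC-PRO, GP and EEC-PRE, Dll4 in EC, Notch1 and Hes1 in ISC, and Hes6 in EEC-PRE.

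Notch1, the receptor with the most UMIs, was a gene of the stem cells and of tuft and endocrine types. It was highest in ISC, at 40.6 and 52.5 CPM, and next in TUFT, at 33.0 and 38.9 CPM, which was not apart from ISC. EEC-PRE had 20.2 and 25.2 CPM, EC 15.2 and 15.0, NON-EC 13.3 and 13.1 and SEC-PRO 7.57 and 9.44. In 4 types it was nearly missing: 6 UMIs in WT GP, 8 in GOBLET-PRE, 1 in GOBLET and 1 in PANETH-PRE, a mean of 0.892 CPM or less. ENTERO-PRO and PANETH were low as well, at means of 4.15 and 2.90 CPM. After each cell was thinned to 2000 UMIs, 6.13% and 10.9% of WT ISC cells and 6.10% and 10.1% of TUFT cells held a Notch1 UMI, against 0 of the WT GOBLET cells. Among the types with the highest Dll1, SEC-PRO and GP had mean Notch1 levels of 8.504 and 0.892 CPM against 46.5 CPM in ISC. EEC-PRE, whose Dll1 level (mean 188 CPM) was not apart from that of SEC-PRO or GP, had 22.7 CPM of Notch1. ENTERO-PRO was low in both genes, with means of 15.5 CPM for Dll1 and 4.15 CPM for Notch1. Over the 12 types Pearson's r of Dll1 with Notch1, on logged WT means, was -0.09. High Dll1 thus did not go with low Notch1 across the types.

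Notch2 was near the limit of these libraries, with 64 WT UMIs. Its level in ISC was 6.71 and 9.93 CPM, and the other 11 types had means of 2.83 CPM or less, with 0 UMIs in WT GOBLET and PANETH. Those 0 UMIs allow up to 3.70 and 2.12 CPM in GOBLET and up to 2.03 and 1.45 CPM in PANETH (3 UMIs of each sum).

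Hes1, the repressor that Notch induces, was highest in the stem cells. It had 98.9 and 128 CPM in WT ISC, apart from the next type, ENTERO-PRO, at 51.4 and 56.5 CPM. PANETH-PRE (37.3 and 50.3), GP (35.8 and 48.7), SEC-PRO (35.5 and 35.5), GOBLET-PRE (31.0 and 38.4), PANETH (23.7 and 39.1) and GOBLET (16.0 and 32.6) lay between. ENTERO-PRO was not apart from PANETH-PRE or GP. The endocrine and tuft types were lowest: NON-EC 17.1 and 14.5 CPM, TUFT 10.2 and 14.1, EEC-PRE 5.38 and 18.001 and EC 4.79 and 9.62. ISC had 15.7 times the level of EC. With the abundant secretory genes left out of the totals PANETH moved to 101 CPM, second to ISC at 120 CPM and above ENTERO-PRO at 58.3 CPM. Counted per 100 cells, ENTERO-PRO held 36.81 Hes1 UMIs and PANETH 36.76. The Hes1 level of PANETH relative to other types therefore depends on the scale. After thinning, 16.9% and 18.1% of WT ISC cells held a Hes1 UMI, against 0.283% and 0.388% of EC cells, whose median cell held 3066 and 3374 UMIs before thinning against 6249 and 6579.5 in ISC. Before thinning the shares were 40.5% and 45.6% in ISC and 1.29% and 2.96% in EC.

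Hes6, a family member that counteracts Hes1 and lies downstream of the proneural factors, had a profile of its own. It was highest in EEC-PRE, at 279 and 358 CPM, apart from TUFT at 182 and 182 CPM. SEC-PRO (144 and 188), NON-EC (131 and 183), EC (126 and 142), GP (111 and 129) and PANETH-PRE (112 and 128) came next with no neighbours apart, although SEC-PRO and NON-EC both lay apart from GP, and SEC-PRO also from EC and PANETH-PRE. ISC (71.5 and 106) and GOBLET-PRE (76.9 and 99.4) followed, and GOBLET (48.1 and 46.7), ENTERO-PRO (47.4 and 34.7) and PANETH (29.8 and 38.2) were lowest. That place of the mature types depends on the scale: without the abundant genes in the totals GOBLET stood at 95.7 and PANETH at 109.6 CPM, above ISC at 94.0, and ENTERO-PRO was lowest at 44.4 CPM. After thinning, 42.3% and 43.1% of EEC-PRE cells held a Hes6 UMI, against 5.66% and 5.50% of PANETH cells.

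The order of types was steady between the WT libraries for most of the genes. Of the 66 pairs of types, both WT libraries ordered 60 the same way for Dll1, 58 for Dll4, 50 for Jag1, 61 for Notch1, 34 for Notch2, 60 for Hes1 and 61 for Hes6. The highest type was the same in both WT libraries for each of the 7 genes, and the same after thinning and after subtraction of free RNA. Over the 12 types, on log2(CPM + 1) of the WT means, the highest Pearson's r was 0.77, for Jag1 with Notch2, the sparse members, and it was 0.25 in APC-KO. Dll1 with Hes6 had 0.70 in WT and 0.59 in APC-KO, Dll4 with Hes6 0.66 and 0.23, Notch1 with Notch2 0.63 and 0.65, Dll1 with Dll4 0.62 and 0.45 and Jag1 with Notch1 0.61 and 0.28. The lowest were -0.53 and -0.56 for Dll4 with Hes1 and -0.47 and -0.43 for Hes1 with Hes6. These describe 12 points that share libraries and naming.

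Among 3077 or 3078 other genes with a mean of at least 50 CPM, the 3 profiles most like each member in WT are given with r in WT and then in APC-KO. For Dll1 they were Cd9 (0.92 and 0.86), Smim6 (0.86 and 0.73) and Zfp330 (0.84 and 0.62), and for Dll4 Glul (0.97 and 0.89), Camk2n1 (0.95 and 0.92) and Fndc3a (0.92 and 0.90). For Notch1 they were Cnn3 (0.94 and 0.87), Hmgn1 (0.92 and 0.85) and Stmn1 (0.90 and 0.76). Those for Hes1 were Trim2 (0.90 and 0.78), Irf8 (0.88 and 0.91) and Ppa1 (0.80 and 0.64), and those for Hes6 Zmynd8 (0.95 and 0.74), Psme4 (0.95 and 0.70) and Mpzl1 (0.94 and 0.87). The sparse profile of Jag1 was most like Nr3c1 (0.91 and 0.54), Add3 (0.90 and 0.67) and Dhrs4 (0.89 and 0.45), and that of Notch2 most like Mif (0.88 and 0.34), Phb2 (0.87 and 0.49) and Cps1 (0.87 and 0.66). Of these 21 pairs 20 had a lower r in APC-KO. The genes were picked for the highest r in WT, which by itself favours a lower r elsewhere. The count therefore does not bear on genotype.

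The 250 bases before the annotated start are shown for Dll1, Dll4 and Hes6, the 3 members whose highest WT level was in a secretory or endocrine type and not in ISC, because proneural and Notch factors act at such sites. Sequences are from RefSeq (GRCm38.p6), written 5′ to 3′ on the gene's strand, and an entry was found for 6 of the 7 genes, all but Hes1. Capitals mark the E-box CAGCTG or the N-box CACNAG, searched on both strands together with the RBPJ core TGGGAA; the 3 motifs do not overlap here. The windows are chr17:15376933-15377182 (minus strand) for Dll1, chr2:119325534-119325783 (plus strand) for Dll4 and chr1:91414039-91414288 (minus strand) for Hes6.
Dll1: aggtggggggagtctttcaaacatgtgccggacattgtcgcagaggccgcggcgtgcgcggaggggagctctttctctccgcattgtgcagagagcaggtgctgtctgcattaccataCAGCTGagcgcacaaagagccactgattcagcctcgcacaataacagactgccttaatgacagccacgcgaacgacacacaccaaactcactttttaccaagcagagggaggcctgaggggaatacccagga
Dll4: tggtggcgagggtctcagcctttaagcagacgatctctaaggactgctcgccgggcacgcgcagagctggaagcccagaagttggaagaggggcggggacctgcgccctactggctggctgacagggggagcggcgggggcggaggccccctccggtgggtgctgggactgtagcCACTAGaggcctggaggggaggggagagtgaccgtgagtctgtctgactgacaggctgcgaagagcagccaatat
Hes6: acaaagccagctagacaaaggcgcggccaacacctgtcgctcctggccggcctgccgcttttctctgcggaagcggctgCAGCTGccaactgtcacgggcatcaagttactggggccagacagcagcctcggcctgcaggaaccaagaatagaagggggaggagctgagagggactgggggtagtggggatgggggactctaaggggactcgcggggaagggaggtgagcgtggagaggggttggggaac

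In GENCODE vM21 (GRCm38) Dll1 spans 17:15367354-15376872, Dll4 2:119325784-119335962 and Hes6 1:91411483-91414038. Counted from the RefSeq start, the base after each window, the E-box began 132 bases before Dll1 and 171 before Hes6, and the N-box 75 bases before Dll4. The RefSeq start of Dll1 lies upstream of the GENCODE one, and those of Dll4 and Hes6 coincide with it. Dll1 and Hes6 each have a second annotated start in the table, without an E-box for Dll1 and with an E-box and an N-box for Hes6. Of 32851 promoter windows of this length, 13.001% held the E-box, 36.7% the N-box and 21.6% the RBPJ core, so a match is common. Among the members not shown, Jag1 had an E-box 82 bases before its start, and Notch1 and Notch2 had an N-box at 108 and 247 bases. The motifs were thus not particular to the members shown. The RBPJ core letters were in none of the windows of the 6 genes. Hes1, which RBPJ switches on, had no entry and was not searched.

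Whether single cells held UMIs of 2 members was counted after thinning, beside the number expected if the UMIs fell independently, as a description with no test. Of the SEC-PRO cells, 19 of 530 in WT replicate 1 and 21 of 380 in replicate 2 held both Dll1 and Dll4, against 18.6 and 20.9. In GP these counts were 21 and 33 against 25.5 and 27.03, in GOBLET-PRE 30 and 34 against 20.01 and 38.3, and in EEC-PRE 3 and 2 against 4.503 and 5.23, so that they lay above in some sums and below in others. Both Dll1 and Hes6 were found in 46 and 43 SEC-PRO cells, against 43.5 and 42.9. Hes1 was found beside Dll1 in 4 and 2 WT ISC cells against 5.76 and 2.53. In SEC-PRO it was found in 12 and 16 cells against 9.63 and 11.6, in GP in 23 and 20 against 14.8 and 20.4, and in GOBLET-PRE in 6 and 22 against 12.7 and 18.6. In GOBLET-PRE the WT libraries thus lay on opposite sides of the expected number.

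The other pathway genes gave the setting of these profiles. Nrarp, a feedback target of Notch, had its highest WT level in ISC, 30.1 and 29.1 CPM, the type where Hes1 was highest. Olfm4, a stem cell gene that Notch maintains, had 2888 and 3820 CPM there. Lfng, a fringe enzyme that tunes the choice of ligand, was highest in EEC-PRE (37.7 and 34.2 CPM) and TUFT (33.0 and 33.6), both types with Notch1 and Hes6 but little Hes1. Rbpj was highest in EEC-PRE (98.3 and 93.6 CPM). Atoh1 was between 139 and 183 CPM in SEC-PRO, GP, GOBLET-PRE, GOBLET and PANETH-PRE of the WT libraries, and 2.69 and 1.80 CPM in EEC-PRE, where Dll1 was high. Other Hes and Hey genes were nearly undetected, with 39 WT UMIs for Hes2, 28 for Hes7, 15 for Hes5, 5 for Heyl, 4 for Hey1, 1 for Hey2 and 0 for Hes3 over all cells.

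**Figure D2:**
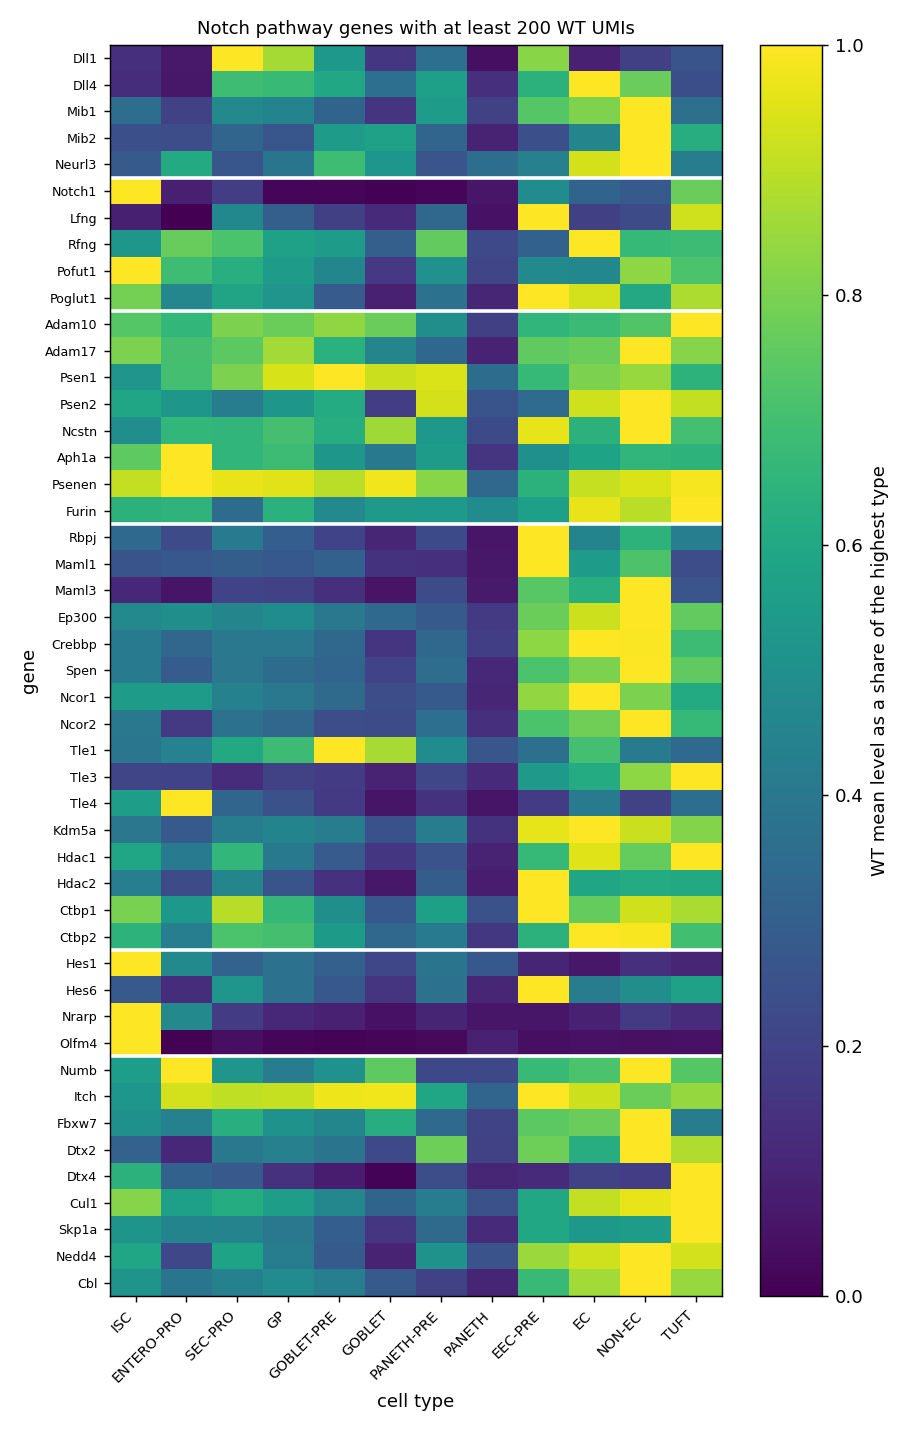
WT mean level of the 47 pathway genes with at least 200 WT UMIs (rows) in the 12 types (columns), each gene as a share of its own highest type (colour, 0 to 1). White lines separate the role lists; Notch1, Hes1, Nrarp and Olfm4 are brightest in ISC, Dll1 in SEC-PRO and Hes6 in EEC-PRE.

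The genotypes were compared on the 4 summed profiles of each type, in the 9 types with at least 10 cells in every library and over all cells, with edgeR's quasi-likelihood test. SEC-PRO, GP and TUFT had 5, 7 and 8 cells in APC-KO replicate 1 and were not tested. Fewer than 7 members could be tested in most types because of the filter on low counts, which left 47 of 70 pairs of gene and fit. None of these 47 passed an adjusted p of 0.05. The background was 0% of 13345 genes over all cells (495 at an unadjusted p under 0.05, and 23 calls by DESeq2), 3.57% in ISC, 0.0788% in ENTERO-PRO, 0.00974% in GOBLET-PRE, 0.0837% in GOBLET, 1.53% in PANETH-PRE, 1.41% in PANETH, 0.654% in EEC-PRE, 0% in EC (729 at an unadjusted p under 0.05, and 13 calls by DESeq2) and 0.113% in NON-EC. Fold changes are APC-KO over WT on the log2 scale with TMM factors. The test borrows spread from other genes, with 4.94 total degrees of freedom over all cells and 409 in ISC. In ISC the p-values and SEs thus rest mostly on the spread of other genes. Each SE is the absolute fold change divided by the square root of the F statistic.

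Hes1 differed more between the 2 APC-KO libraries than between the genotypes. In ISC its level was 98.9 and 128 CPM in WT, 52.8 CPM in APC-KO replicate 1 (4 UMIs in 13 cells) and 193 CPM in APC-KO replicate 2 (1157 UMIs in 1245 cells). In ENTERO-PRO it was 51.4 and 56.5 CPM in WT, 28.1 in APC-KO replicate 1 and 110 in replicate 2, and in GOBLET-PRE 31.0 and 38.4, then 15.7 (28 UMIs) and 52.8. In these types the 2 APC-KO libraries lay on opposite sides of WT, with 4, 2 and 28 UMIs in replicate 1. APC-KO replicate 2 was above both WT libraries in 12 of 12 types, at 1.35 (GP) to 3.61 (TUFT) times the WT mean with a median of 1.89, and 5.14% of 5510 genes with at least 1000 WT UMIs did the same. APC-KO replicate 1 was below both WT libraries in 8 of 12 types and above both in 2.

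The fitted Hes1 difference was 0.66 ± 0.24 (SE) in ISC with an edgeR adjusted p of 0.111, 0.93 ± 0.35 in ENTERO-PRO (0.487) and 0.50 ± 0.69 over all cells (1.00), n = 2 libraries per genotype in each. Without APC-KO replicate 1 the edgeR adjusted p passed the threshold in ISC (0.86, adjusted p = 3.65e-04), ENTERO-PRO (1.07, 0.00298) and over all cells (1.18, 0.0207). Without APC-KO replicate 2 the sign turned, to -1.12 in ISC, -0.94 in ENTERO-PRO and -1.14 over all cells. Which APC-KO library is used therefore set both the call and the direction. Barcodes of 1 to 50 UMIs, taken here as free RNA, had 58.7 and 66.8 Hes1 CPM in the WT libraries and 46.5 and 84.7 in APC-KO replicates 1 and 2, the same order as in the cells. With that free RNA profile subtracted at 5% of each sum, the ISC difference was 0.65 (edgeR adjusted p = 0.216), and the part of free RNA beyond that was not tested. Of the thinned ISC cells, 29.7% held a Hes1 UMI in APC-KO replicate 2, against 16.9% and 18.1% in WT.

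**Figure D3:**
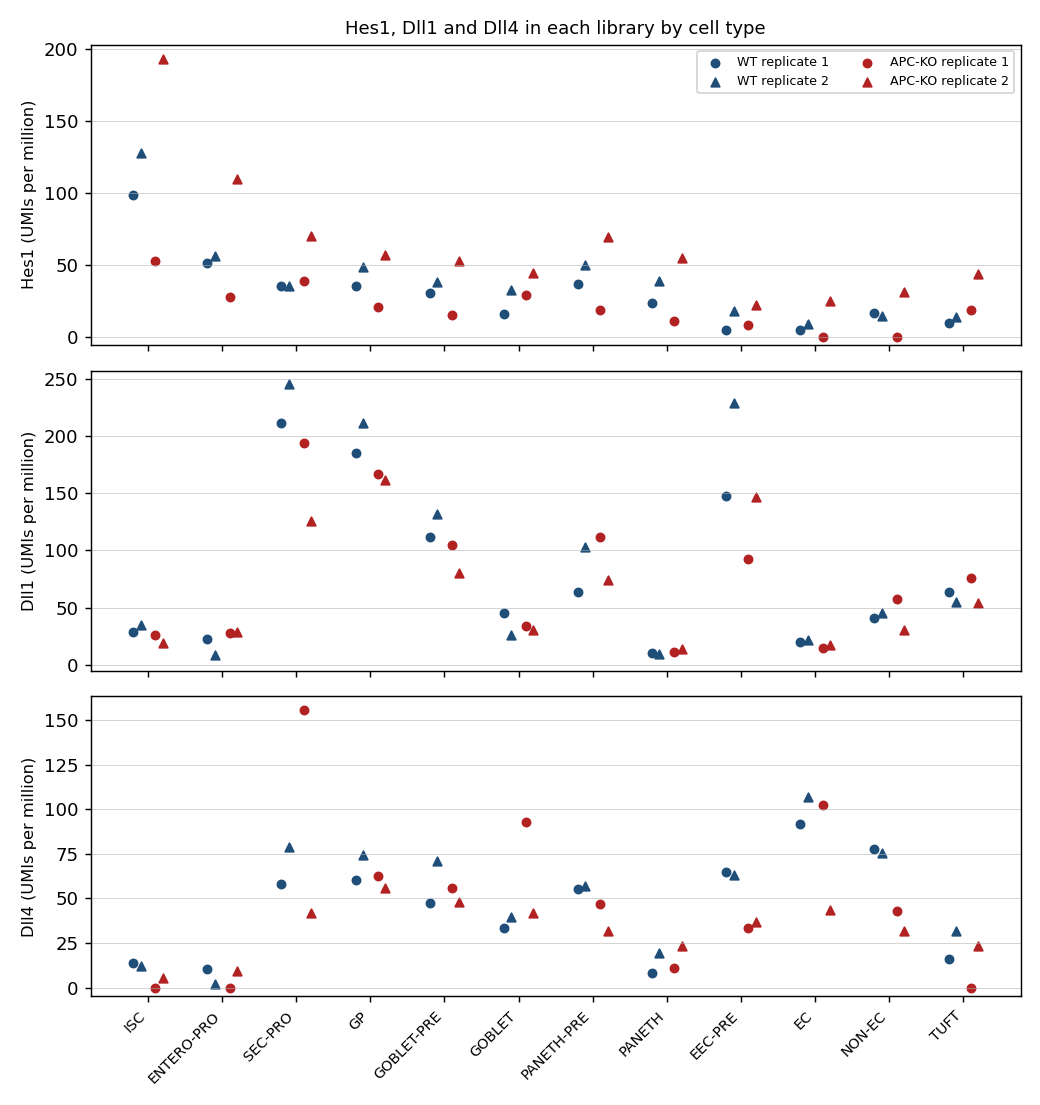
Hes1, Dll1 and Dll4 levels (y axes, CPM, linear from 0) in the 12 types (x axis), one point per library; blue is WT, red APC-KO, circles replicate 1 and triangles replicate 2. For Hes1 the red triangle is above both blue points in all 12 types, and the red circle is below both in 8. Most red circles of Hes1 rest on few UMIs.

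Dll4 was lower in the APC-KO libraries in several types, short of the threshold. In ISC it had 14.0 and 12.1 CPM in WT (48 and 17 UMIs), 0 UMIs in APC-KO replicate 1 and 5.18 CPM (31 UMIs) in replicate 2. The 0 UMIs allow up to 39.6 CPM in that small sum, so only APC-KO replicate 2 bears on the difference. The fitted difference was -1.32 ± 0.43 (SE, n = 2 and 2) with an edgeR adjusted p of 0.0644. In NON-EC the level was 77.7 and 75.6 CPM in WT against 42.8 (3 UMIs) and 31.7 (-1.13 ± 0.32, edgeR adjusted p = 0.214), and in PANETH-PRE 55.2 and 57.2 against 46.6 (5 UMIs) and 32.0 (-0.86 ± 0.31, 0.206). In EEC-PRE it was 64.6 and 63.0 against 33.6 and 36.7 (-0.67 ± 0.34, 0.596). In these 4 types all APC-KO values lay below all WT values, as they did for 26.2% of the genes tested in ISC, 25.6% in NON-EC, 16.6% in PANETH-PRE and 30.2% in EEC-PRE. In EC the APC-KO libraries disagreed, at 102 and 43.3 CPM against 91.8 and 107 in WT.

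GOBLET went the other way, with Dll4 at 33.3 and 39.6 CPM in WT and 93.0 (19 UMIs) and 41.8 in APC-KO (0.43 ± 0.34, edgeR adjusted p = 0.675), a rise without overlap that 29.5% of genes tested there shared. Without APC-KO replicate 1, Dll4 passed the edgeR threshold in ISC (-1.29, adjusted p = 0.0252), EC (-1.15, 0.00316) and NON-EC (-1.18, 0.0180). Whether the difference depends on the type was tested as an interaction of genotype and type over 36 sums of 9 types, which 3.1% of 10884 genes passed. Dll4 had an edgeR adjusted p of 0.0784 (F = 3.19), and 0.0181 without APC-KO replicate 1. The other 6 members had adjusted p from 0.260 (Notch1) to 0.895 (Notch2) in that edgeR test, with Hes1 at 0.403.

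Dll1 had lower levels in both APC-KO libraries than in both WT libraries over all cells and in 6 types, and no test passed. In all of these types but GOBLET-PRE, APC-KO replicate 1 had only 2 to 11 Dll1 UMIs. In its 4 highest types the WT and then the APC-KO levels were 212 and 246 against 194 (5 UMIs) and 126 CPM in SEC-PRO, 185 and 211 against 167 (8 UMIs) and 162 in GP, 148 and 229 against 92.5 (11 UMIs) and 147 in EEC-PRE, and 112 and 132 against 104.4 and 80.6 in GOBLET-PRE. SEC-PRO and GP were not tested, so no share of genes with the same pattern stands beside them. The fitted difference was -0.35 ± 0.28 in EEC-PRE and -0.29 ± 0.19 in GOBLET-PRE (edgeR adjusted p = 0.804 and 0.718). It was -0.62 ± 0.28 in ISC and -0.26 ± 0.38 in EC (edgeR adjusted p = 0.297 and 0.890), where the groups did not overlap either. ISC had 28.6 and 34.8 CPM in WT against 26.4 (2 UMIs) and 19.0 in APC-KO, where 3 UMIs of the replicate 1 sum equal 39.6 CPM. EC had 19.96 and 21.37 CPM against 14.6 (4 UMIs) and 17.1. Such a pattern was shared by 30.2% of genes tested in EEC-PRE, 30.6% in GOBLET-PRE, 26.2% in ISC and 24.3% in EC. ENTERO-PRO had it the other way, at 22.4 and 8.69 CPM in WT and 28.1 (2 UMIs) and 28.7 in APC-KO (0.81 ± 0.45, edgeR adjusted p = 0.731), as did 13.5% of its genes. Over all cells Dll1 had 103.8 and 120 CPM in WT and 82.1 and 64.5 in APC-KO, a pattern seen in 26% of all genes tested. The difference was -0.52 ± 0.23 (SE, n = 2 and 2, edgeR adjusted p = 1.00, 95% interval -1.11 to 0.073). The shares of the types that carry Dll1 differed as well, in both directions. SEC-PRO made up 11.3% and 10.1% of WT cells and 1.40% and 13.8% of APC-KO cells, GP 16.3% and 16.1% against 1.97% and 7.29%, and GOBLET-PRE 26.6% and 32.6% against 51.7% and 17.3%. Their part in the difference over all cells was not tested. In PANETH the CPM of both APC-KO libraries, 11.1 and 14.1, lay above the WT values of 10.2 and 9.18, as they did for 44.7% of the genes tested there, yet the fitted difference with TMM factors was -0.20 ± 0.43, so its direction depends on the scaling.

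Hes6, Notch1, Jag1 and Notch2 showed no difference past the threshold either. Hes6 was 279 and 358 CPM in WT EEC-PRE and 345 and 217 in APC-KO, and its largest fitted difference was -0.75 ± 0.34 in PANETH (edgeR adjusted p = 0.374). The PANETH levels were 29.8 and 38.2 CPM in WT and 5.53 (1 UMI) and 39.0 (72 UMIs) in APC-KO. In CPM, APC-KO replicate 2 thus lay above both WT libraries, against the sign of the fit with TMM factors. In EEC-PRE the interval of the Hes6 difference was -0.69 to 0.46. Notch1 in ISC was 40.6 and 52.5 CPM in WT and 26.4 (2 UMIs) and 41.1 in APC-KO, a difference of -0.09 with an interval of -0.56 to 0.37. Jag1 in ISC was 9.63 and 14.2 CPM against 13.2 (1 UMI) and 8.02. Notch2 in ISC was 6.71 and 9.93 CPM against 0 and 12.0, and over all cells its difference was 1.19 ± 0.48 (edgeR adjusted p = 1.00), from 38, 26, 4 and 108 UMIs.

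**Figure D4:**
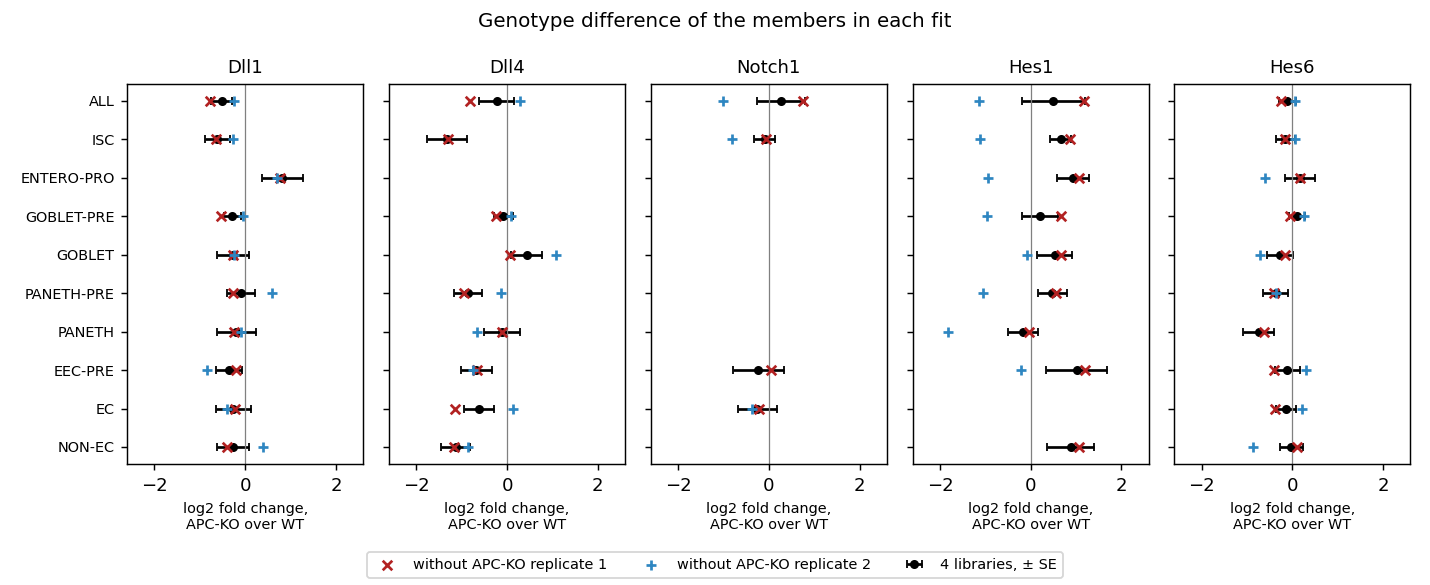
Fitted log2 fold change, APC-KO over WT (x axis), of 5 members in each fit where they were tested (rows), with 4 libraries (black point ± SE) and without APC-KO replicate 1 (red cross) or replicate 2 (blue plus). Leaving out APC-KO replicate 2 moves Hes1 below 0 in 8 of its 9 fits, from above 0; in PANETH it was below 0 before. In NON-EC the Hes1 value without replicate 2 (-6.29, against 0 UMIs) in ISC the Dll4 value (-7.46) and in EEC-PRE the Notch1 value (-6.41) lie outside the axis.

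The pathway lists gave few calls over the 10 fits. Beside them, 0.821% of genes fell in PANETH, and 2.29% rose in ISC, 0.0473% in ENTERO-PRO and 0.772% in PANETH-PRE. Over the ligand and ligand trafficking genes 51 gene and fit pairs were tested, and 1 fell: Neurl3, a ubiquitin ligase of the Neuralized family, in PANETH, at 29.8 and 85.5 CPM in WT and 16.6 and 21.7 in APC-KO (-2.17, edgeR adjusted p = 0.0110). That call was lost without WT replicate 2 (-1.38, edgeR adjusted p = 1.00) or APC-KO replicate 2 (-2.11, 0.478). Of 27 pairs for receptors and fringe or glycan enzymes, 74 for receptor cleavage, 77 for inhibitors and turnover and 52 for secretory fate factors, 0 passed. Of 150 pairs for the nuclear complex and corepressors, 2 rose, both in ISC: Rbpj, at 35.3 and 30.5 CPM in WT and 13.2 (1 UMI) and 56.3 in APC-KO (0.75, edgeR adjusted p = 0.0465), and the corepressor Tle4, at 49.3 and 46.8 against 26.4 (2 UMIs) and 88.4 (0.86, 0.00313). For both, as for Hes1, APC-KO replicate 2 lay above and replicate 1 below both WT libraries. Without APC-KO replicate 2 the sign of both turned (-1.38 for Rbpj and -0.92 for Tle4), and without either WT library the edgeR adjusted p of both was 1.00. Of 35 pairs for the Hes and Hey genes and other targets, 2 rose, both Olfm4: in ENTERO-PRO, from 22.4 and 13.03 CPM in WT to 56.2 and 107 in APC-KO (2.47, edgeR adjusted p = 0.0230), and in PANETH-PRE, at 102 and 57.2 CPM in WT and 27.98 and 508 in APC-KO (1.95, 0.0200). The PANETH-PRE value turned to -1.42 without APC-KO replicate 2 and lost the call without APC-KO replicate 1 (2.48, edgeR adjusted p = 0.178) or WT replicate 2 (1.39, 0.495), and the ENTERO-PRO call was lost without APC-KO replicate 2 (1.55, 0.646) or WT replicate 2 (2.02, 1.00). DESeq2 called neither Olfm4 value (adjusted p = 1.00 for each) and gave no adjusted p for Rbpj, Tle4 or Neurl3. With cells thinned to 2000 UMIs Rbpj and Neurl3 lost their edgeR calls (adjusted p = 0.104 and 0.0749), and Rbpj also with free RNA subtracted (0.0713) and with no filter (0.0545). Olfm4 in ENTERO-PRO was at 8.91 with free RNA subtracted and kept its call. Its WT sums held 17 and 6 UMIs before that subtraction, so this value rests on few or no WT counts and its size cannot be read. Over the 10 fits the median fold change of the 3 to 10 tested ligand and trafficking genes ranged from -0.48 in EEC-PRE to 0.35 in GOBLET, against -0.01 to 0.02 for all genes tested.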

How the data were processed

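Deposited matrices held UMI counts per gene and barcode, for which Cell Ranger 3.0.2, STAR and mm10 are named, per the submitters' processing notes. The authors' deposited per-cell tables gave the counts of UMIs and genes, the mitochondrial percent, and other values (library and 1 of 12 cell type names); how cells were filtered, named or checked for doublets is not given in the sources used here, and no doublet caller was run. Counts of the kept cells were summed per library and type. Genotypes were compared in R 4.3.3 with edgeR 4.0.16 (TMM, filterByExpr, quasi-likelihood test, Benjamini-Hochberg adjustment over all genes tested, threshold 0.05), with DESeq2 1.42.0 and limma 3.58.1 in alternatives. The interaction fit held the library as a block. On simulated data with log2 changes of 2, edgeR recovered 174 of 198 changed genes over all cells, 181 of 195 in ISC, 140 of 189 in PANETH and 81 of 195 for the interaction. Every gene had the same dispersion within a fit (0.0551 over all cells, 0.0209 in ISC). The interaction run used 0.05, with changes in GOBLET-PRE only. These rates do not apply to smaller changes or to genes that vary more between libraries. Positions came from GENCODE vM21, which matched 30934 of 31053 gene IDs. The 7 genes, the pathway and marker lists and the naming rule were chosen with earlier results of these data known. The rule named the 7 genes everywhere, list genes past the threshold (at most 5 per list and fit), the 3 most similar profiles per gene (mean of at least 50 CPM, no model symbols) and Apc. Thinning drew 2000 UMIs per cell; 161, 50, 10 and 292 shallower cells were left out.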

Additional observations from a re-analysis of the deposited data

How the results depend on the processing

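Among refits of the members' fold changes 391 kept direction and side of the threshold, 44 turned sign and 6, each without APC-KO replicate 1, came to pass it. DESeq2 gave no adjusted p for some members, and such refits are not counted. Of the WT levels under alternatives, 335 values moved by less than the SD of the 2 replicates and 85 by more. The 85 were 34 with thinning, 17 with free RNA subtracted and 34 without the abundant genes, each out of 84. The 335 include the 84 values without each WT replicate. Those lie within the SD by construction, so they do not show that the levels are stable. A fit without 1 library assumes that the lone sample of its genotype varies like the other group.

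Ranges over the 4 fits that each left out a library are given on the log2 scale for each gene whose sign turned. Turning without APC-KO replicate 2, over all cells Notch1 ranged from -1.003 to 0.76 and Hes1 from -1.14 to 1.18, and in ISC Jag1 from -0.69 to 0.19, Notch2 from -6.69 (0 UMIs left) to 0.84, Hes1 from -1.12 to 0.86, Rbpj from -1.38 to 0.81 and Tle4 from -0.92 to 0.93. So did Hes1 in ENTERO-PRO (-0.94 to 1.07), GOBLET-PRE (-0.97 to 0.67), GOBLET (-0.080 to 1.21), PANETH-PRE (-1.06 to 0.56), EEC-PRE (-0.20 to 1.88) and NON-EC (-6.29, with 0 UMIs left, to 1.07), Olfm4 in PANETH-PRE (-1.42 to 2.48), Dll4 and Hes6 in EC (-1.15 to 0.13 and -0.39 to 0.21) and Dll1 in NON-EC (-0.40 to 0.39). Turning without APC-KO replicate 2 and also without WT replicate 2 were Dll4 and Hes6 over all cells (-0.82 to 0.28 and -0.26 to 0.058), Hes6 in ISC (-0.39 to 0.11), ENTERO-PRO (-0.61 to 0.39) and EEC-PRE (-0.40 to 0.29), Dll4 in GOBLET-PRE (-0.30 to 0.17) and Dll1 in PANETH-PRE (-0.26 to 0.60). Turning without APC-KO replicate 1 were Jag1 in GOBLET-PRE (-0.038 to 1.04) and Notch1 in EEC-PRE (-6.41 to 0.047), with WT replicate 1 also Hes6 in GOBLET-PRE (-0.048 to 0.24), and with WT replicate 2 also Hes6 in NON-EC (-0.87 to 0.11). Dll1 in GOBLET turned without WT replicate 1 (-0.64 to 0.078) and Dll4 in PANETH without WT replicate 2 (-0.67 to 0.48).

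Other sign turns came with cells thinned to 2000 UMIs (Hes6 over all cells 0.0047, Dll1 0.069 and Dll4 -0.10 in GOBLET, Dll1 0.084 in EEC-PRE and 0.38 in NON-EC), with the equal mix of types (Notch1 -0.31 and Hes1 -0.067) and with free RNA subtracted (Dll1 0.16 in PANETH). DESeq2 gave 0.11 for Dll1 in PANETH-PRE without an adjusted p, so that turn is not among the 44 counted above. The causes were not tested.

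The count of genes passing the threshold moved by over 1.5 times as follows, from 0 over all cells, 350 in ISC, 5 in ENTERO-PRO, 1 in GOBLET-PRE, 5 in GOBLET, 85 in PANETH-PRE, 98 in PANETH, 43 in EEC-PRE, 0 in EC, 9 in NON-EC and 337 for the interaction. With a library left out the counts ranged from 0 to 483 over all cells, 29 to 786 in ISC, 2 to 392 in ENTERO-PRO, 7 to 64 in GOBLET-PRE, 0 to 21 in GOBLET, 3 to 45 in PANETH-PRE, 0 to 225 in PANETH, 0 to 285 in EEC-PRE, 0 to 405 in EC, 13 to 344 in NON-EC and 53 to 768 for the interaction. With DESeq2's test they were 23 over all cells, 16 in ISC, 38 in GOBLET-PRE, 18 in PANETH-PRE, 34 in PANETH, 11 in EEC-PRE, 13 in EC and 3 in NON-EC, and with its size factors 8 in ENTERO-PRO and 16 in EEC-PRE. With no filter they were 21 over all cells, 80 in ENTERO-PRO, 280 in GOBLET-PRE, 79 in GOBLET, 161 in PANETH-PRE, 205 in PANETH, 98 in EEC-PRE, 174 in EC and 141 in NON-EC. Thinned, they were 116 in ISC, 3 in ENTERO-PRO, 4 in GOBLET-PRE, 0 in GOBLET (318 at an unadjusted p under 0.05 with edgeR), 52 in PANETH-PRE, 25 in PANETH, 28 in EEC-PRE, 26 in EC and 139 for the interaction. With free RNA subtracted they were 3 in ENTERO-PRO, 0 in GOBLET-PRE (787 at an unadjusted p under 0.05 with edgeR), 3 in GOBLET, 49 in PANETH-PRE, 22 in EEC-PRE and 1 in NON-EC.

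The shared replicate numbers did not pair the libraries: same-numbered deviations had r = -0.25 over all cells. With the replicate block the counts were 4 over all cells, 76 in ISC, 3 in ENTERO-PRO, 110 in GOBLET-PRE, 73 in GOBLET and 3 in NON-EC; the crossed block, added after the data had been seen, gave 1 over all cells. With the replicate block no member passed the threshold, and of the 5 calls in the pathway lists those of Rbpj (0.62) and Tle4 (0.65) in ISC and Olfm4 in ENTERO-PRO (2.38) did not pass it.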
